A study of Solanum lycopersicum with 10 samples.

Results

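A run of 50 tomato loci on chromosome 1, from Solyc01g110550 to Solyc01g110960 in identifier order, was followed through the response to synthetic auxin. The loci were taken by identifier range, as an interval described as rich in tandem SAUR genes, with earlier results of these data known. They make up 50 of the 35767 loci in the expression table. SAUR (small auxin up RNA) genes encode short plant proteins, and many were first found as transcripts that accumulate soon after auxin is given. In Arabidopsis, several SAUR proteins inhibit a clade of protein phosphatases that would otherwise hold back the proton pump of the plasma membrane, and so favour cell expansion. The genes often lie in tandem arrays of similar copies, and members of 1 array can differ in the organ in which they are transcribed. The expression table lists identifiers without names. In the gene table of RefSeq (SLM_r2.1), 0 rows hold a Solyc identifier, so which of the 50 loci are SAUR genes could not be checked and each is called by its identifier.

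The plants were tomato (Solanum lycopersicum) of line M82, and no transgene or mutation is named for any group. In the root experiment, seedlings were kept on plates in constant light at 22 °C. Seedlings that had germinated 4 days earlier spent 3 h on plates containing 2,4-D at 1 µM, a synthetic auxin, and tips of 1 cm were cut from their roots. In the leaf experiment, greenhouse plants aged 3 weeks were sprayed with mock solution or with picloram at 1 µM, a second synthetic auxin, for 3 h, and 15 young primordia of leaf 5 at the P5 stage were pooled. Root tips on mock (n = 2), root tips on 2,4-D (n = 2), mock leaf primordia (n = 3) and picloram-treated leaf primordia (n = 3) gave 10 libraries of a 3′ end sequencing kit, which reads each transcript near its end, so that levels of different loci were set side by side without division by length. Nothing says that the libraries of a group came from separate sets of plants, so the p-values measure the spread between these libraries, which may be technical. Values are counts normalized by the authors, and the libraries summed to 2.83 to 2.96 M in root and to 1.83 to 2.06 M in leaf. As a check of the labelled tissues, 15 loci recalled as light-harvesting and Rubisco small-subunit genes summed to 1010 to 1370 normalized counts in the root libraries, where 5 to 7 of them were at 0, and to 10900 to 19000 in the leaf libraries, where 0 were at 0.

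Most of the interval was nearly silent in both organs. Of the 50 loci, 11 were not detected, that is, they stood at 0 in all 10 libraries: Solyc01g110610, Solyc01g110620, Solyc01g110647, Solyc01g110688, Solyc01g110790, Solyc01g110800, Solyc01g110847, Solyc01g110880, Solyc01g110890, Solyc01g110925 and Solyc01g110930. That is 22% of the interval, against 27.8% of all loci of the table. The loci that were detected were low: 28 of the 39 stayed under 10 normalized counts in every library, and 11 of 50 (22%) reached 10 in at least 1 library, against 47.1% of all loci and 49.1% of the 4439 loci of chromosome 1. The lowest cluster of values above 0 in the table had a median of 0.798 to 1.22, depending on the library, so most values in the interval were worth a few sequenced fragments. Low values of this kind cannot show small differences, and a 0 here means not detected at this depth.

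The 2 loci at the ends of the interval were exceptions. The first, Solyc01g110550, stood at 931 and 888 normalized counts in mock root, at 783 and 846 on 2,4-D, at 362, 405 and 398 in mock leaf and at 315, 301 and 331 with picloram. The last, Solyc01g110960, stood at 626 and 700, at 599 and 768, at 353, 324 and 313, and at 187.5, 183 and 219 in the same groups. Every library thus held more of either end locus than of all 48 inner loci added together, which summed to 66.1 to 111 normalized counts, or 3.93% to 18.7% of the interval's total. The inner loci reached at most 44.3, in 1 library for Solyc01g110560, and 0 of the 48 reached 50. The end loci are therefore described apart from the inner loci throughout.

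**Figure D1:**
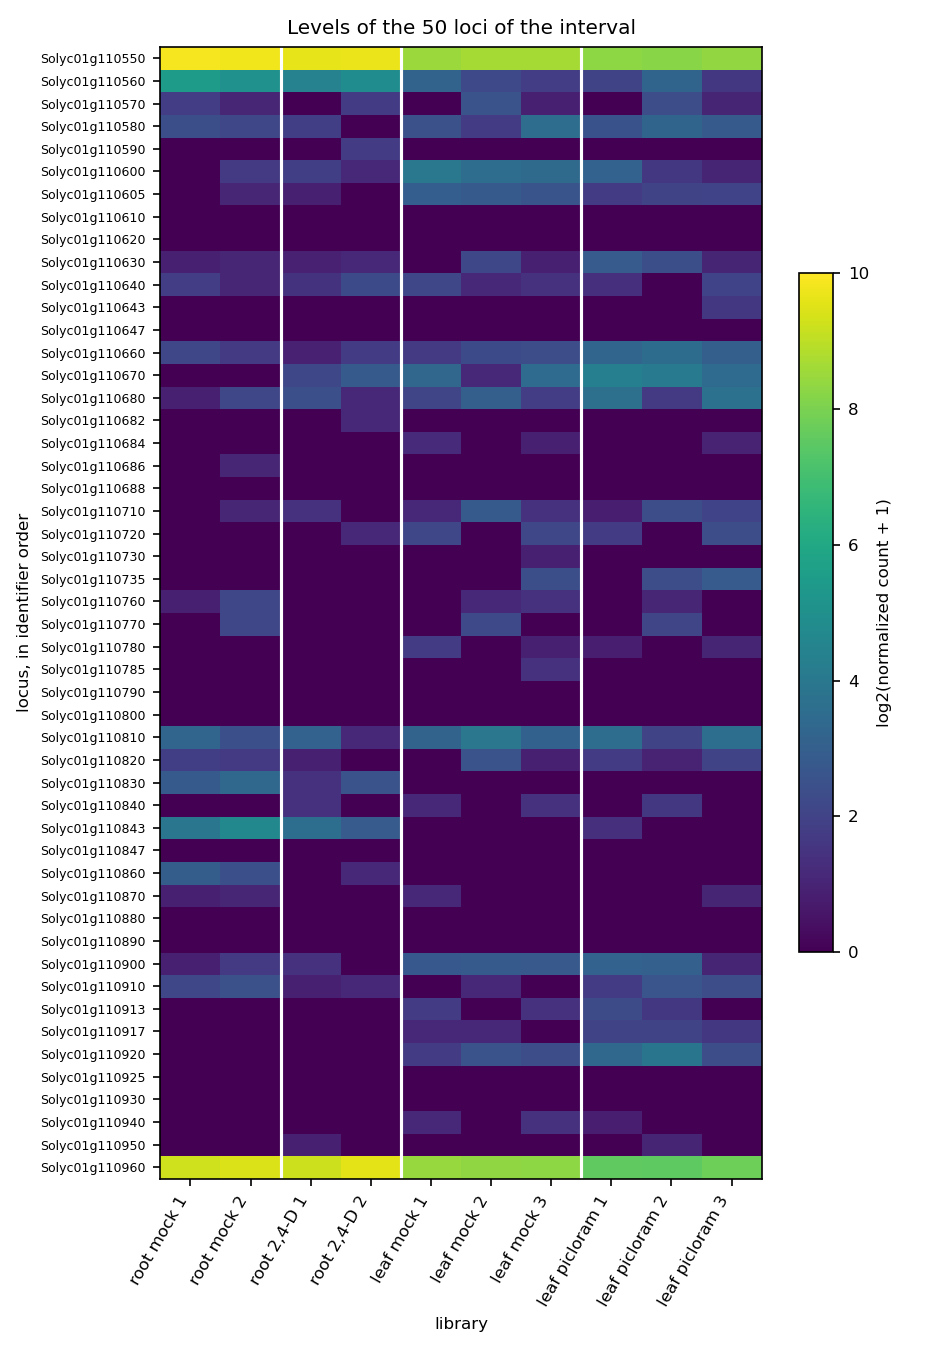
Level of each of the 50 loci (rows, in identifier order) in each of the 10 libraries (columns), as log2(normalized count + 1) on the colour scale. The first and the last row are bright in all libraries, and 11 rows are at 0 throughout; in between, short stretches such as Solyc01g110913 to Solyc01g110920 have values above 0 in leaf and 0 in all 4 root libraries.

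Set beside its neighbours, the interval was a stretch of low signal between more active loci. Among the 20 loci listed just before it, 17 reached 10 normalized counts in at least 1 library and 10 reached 100, and among the 20 just after it 11 and 6 did. The median over loci of the mean over libraries was 67.1 before the interval, 19.7 after it and 1.01 within it. The loci right after the last end locus were also low, with Solyc01g110970 at a mean of 0.559 in root and 0.526 in leaf and Solyc01g110980 at 0. Of the 14 loci of the interval whose identifiers end in a digit other than 0, 4 were not detected and 1 reached 10, against 7 and 10 of the other 36.

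**Figure D2:**
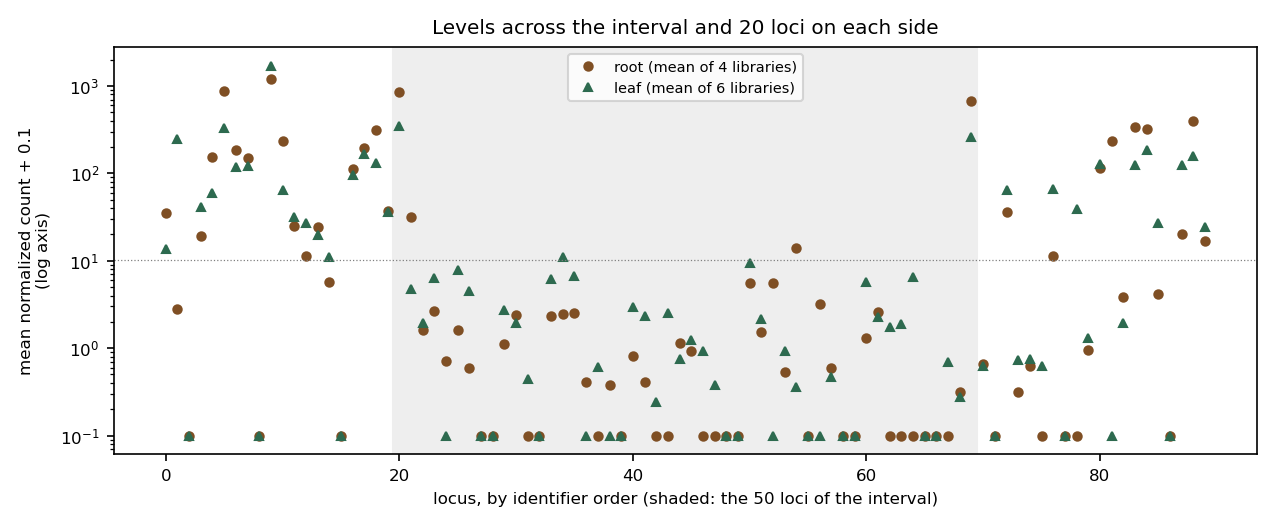
Mean normalized count plus 0.1 (log axis) of the interval's 50 loci (shaded) and of the 20 loci on each side, in identifier order, as the mean of 4 root libraries (circles) and of 6 leaf libraries (triangles). The dotted line marks 10. The 2 end loci lie in the range of the flanks, and nearly all inner loci lie below the line.

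Neighbours within the interval were not always detected in the same organ. Of the 39 detected loci, 24 were above 0 in both organs, 7 in leaf alone, 2 in root alone and 6 in a single library. The 6 seen in a single library were Solyc01g110590, Solyc01g110643, Solyc01g110682, Solyc01g110686, Solyc01g110730 and Solyc01g110785, none above 2.44 normalized counts. The 7 seen in leaf alone were Solyc01g110684, Solyc01g110735, Solyc01g110780, Solyc01g110913, Solyc01g110917, Solyc01g110920 and Solyc01g110940, and 3 of them, Solyc01g110913, Solyc01g110917 and Solyc01g110920, follow each other directly. The 2 seen in root alone were Solyc01g110830 and Solyc01g110860, with Solyc01g110843 between them nearly so. Leaf had more libraries than root, so a locus near the floor had more chances to be seen there. Solyc01g110684, for one, reached at most 1.26 in leaf. The share of such loci over the whole table was not counted, so detection in 1 organ alone does not by itself show a difference between organs. From Solyc01g110560 to the next locus, Solyc01g110570, the mean level on the log2(value + 1) scale differed by -3.79 in root and by -1.21 in leaf. From Solyc01g110840 to Solyc01g110843 it differed by 3.40 in root and by -0.47 in leaf. In these pairs the gap was wider in root than in leaf, where every value was under 10 and left little room for a gap. In 49 pairs of adjacent loci, 0 had opposite calls in any comparison, since few loci were high enough to be tested.

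Levels were compared with limma, a moderated linear model, on log2(value + 1), and a locus was called at an adjusted p under 0.05 over all loci tested in the table. A locus was tested in an organ where it reached 10 in at least 2 libraries of it. By that minimum 8 of the 50 loci entered at least 1 comparison and 42 entered none. Of the 8, Solyc01g110560 and Solyc01g110843 entered through root, Solyc01g110600, Solyc01g110670, Solyc01g110680 and Solyc01g110810 through leaf, and the 2 end loci through both. Where a locus is at 0 in every library of 1 group, its call is given without a fold.

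Which of the loci differ between the organs without auxin was asked by comparing mock root with mock leaf. Of 8 tested loci 4 were higher in root and 2 were higher in leaf, while 62.5% of all 15761 tested loci were called, 32.7% higher in root and 29.8% lower. The organs came from separate experiments with plants of different age and growth conditions, so organ and experiment cannot be told apart. A locus that entered through 1 organ was high there by selection, which favours a call.

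Among the inner loci, the 1 of highest level in root was Solyc01g110560, with 44.3 and 32.4 normalized counts in mock root against 8.06, 3.64 and 2.53 in mock leaf. The groups did not overlap, and root was higher by 2.88 ± 0.53 on the log2 scale (SE, adjusted p = 0.000554, limma). Solyc01g110843 stood at 14.1 and 24.2 in mock root and at 0 in all 3 mock leaf libraries, and was called higher in root (adjusted p = 1.53e-05, limma). Solyc01g110830, at 6.08 and 9.10 in mock root, and Solyc01g110860, at 6.72 and 4.49, lie close by and were at 0 in all 6 leaf libraries. Both fell short of the minimum and were not tested. Directly next to Solyc01g110843, Solyc01g110840 and Solyc01g110847 were at 0 in both mock root libraries. By mean level in mock root, the highest inner loci were, in falling order, Solyc01g110560, Solyc01g110843, Solyc01g110830, Solyc01g110810 and Solyc01g110860. Among them, Solyc01g110810, at 8.52 and 4.47 in mock root, overlapped with mock leaf.

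Other inner loci were higher in mock leaf, but not in a stretch of their own. Solyc01g110900, with all mock leaf libraries above mock root, lies next to Solyc01g110910, with all of them below. Neither reached the minimum. Solyc01g110600 had 15.0, 10.9 and 10.1 normalized counts in mock leaf against 0 and 2.24 in mock root, lower in root by -2.84 ± 0.65 (SE, adjusted p = 0.00248, limma). The next locus, Solyc01g110605, repeated that order at lower values, 6.91, 6.07 and 5.05 in mock leaf against 0 and 1.12 in mock root, and was not tested. Solyc01g110670 stood at 8.82, 1.23 and 10.3 in mock leaf and at 0 in both mock root libraries, and was called lower in root (adjusted p = 0.00317, limma). Solyc01g110680 and Solyc01g110810 were not called, at -0.82 ± 0.70 (SE, adjusted p = 0.328) and -0.56 ± 0.65 (SE, adjusted p = 0.472). For Solyc01g110810 the mock values were 8.52 and 4.47 in root and 8.06, 14.6 and 7.58 in leaf, and these overlapped.

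Both end loci were higher in mock root, Solyc01g110550 by 1.23 ± 0.11 (SE, adjusted p = 1.41e-06, limma) and Solyc01g110960 by 1.00 ± 0.14 (SE, adjusted p = 5.71e-05, limma). Their size depended on the scaling. Root libraries have larger totals, and with equal library totals the median difference of all tested loci moved from 0.08 to -0.45, while the end loci stood at 0.67 and 0.45 (adjusted p = 0.000216 and 0.0227). With quantile normalization they stood at 0.66 and 0.47. Both remained called under each scaling.

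Counted without a test over all 35 loci detected in mock libraries, 7 had both mock root libraries above all 3 mock leaf libraries, against 29.7% of all detected loci of the table, and 6 had both below, against 28.3%. The share of the interval that separated the organs in this way, 20% and 17.1%, was thus no larger than that of the table, in which levels are mostly higher.

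Whether 2,4-D raises transcripts of the interval in the root tip was the next comparison. Of 4 tested loci 0 were called by limma, with 0 at an unadjusted p under 0.05, while 4.55% of all 12664 tested loci were called (3.48% higher, 1.07% lower) and 16.3% had an unadjusted p under 0.05. With 4 loci tested, 0 calls lie near the rate of the table. The median log2 fold change was -0.40 over the 4 loci and -0.02 over all tested loci.

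Solyc01g110560 went from 44.3 and 32.4 normalized counts in mock to 20.6 and 28.1 on 2,4-D, means of 38.4 ± 8.40 and 24.4 ± 5.25 (SD, n = 2). The groups did not overlap, but the fold change of -0.63 ± 0.58 was not called (SE, adjusted p = 0.686, limma). Solyc01g110843 went from 14.1 and 24.2 to 11.4 and 6.27, a fold change of -1.04 ± 0.55 (SE, adjusted p = 0.396, limma), again with no overlap. The end locus Solyc01g110550 had -0.16 ± 0.12 (SE, adjusted p = 0.584) and the end locus Solyc01g110960 0.04 ± 0.15 (SE, adjusted p = 0.95), the highest of the 4. Intervals of this width leave a fold change of either sign possible for Solyc01g110560.

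Lower values on 2,4-D were also seen in loci under the minimum, but most of the summed difference lay in a few loci. The 48 inner loci summed to 103 and 109 normalized counts in mock root and to 66.5 and 66.1 on 2,4-D, or 34.7 and 38.0 against 22.5 and 23.4 normalized counts in each 1000000 of the library total. Of the mean difference of -39.7, Solyc01g110560 held -14.0, Solyc01g110843 -10.3, Solyc01g110860 -4.99 and Solyc01g110830 -4.34, while Solyc01g110670 held 4.76. In all, 16 inner loci had the lower mean on 2,4-D and 11 the higher, a split that was not counted over all loci. Both 2,4-D libraries lay below both mock libraries for 10 of the 29 loci detected in root (34.5%, against 20.1% of all detected loci), and both lay above for 1 (3.45%, against 23.2%). The 10 were Solyc01g110550, Solyc01g110560, Solyc01g110580, Solyc01g110760, Solyc01g110820, Solyc01g110830, Solyc01g110843, Solyc01g110860, Solyc01g110870 and Solyc01g110910. Some of the 10 differed by about 1 fragment, such as Solyc01g110870, at 0.849 and 1.12 in mock root and at 0 in both 2,4-D libraries. The counts are over loci that share their libraries, so they are given as a description with no test.

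Of the loci under the minimum, Solyc01g110830 stood at 6.08 and 9.10 in mock root and at 1.68 and 4.82 on 2,4-D. Solyc01g110860 stood at 6.72 and 4.49 and at 0 and 1.23. Without any minimum on low values, the latter was the 1 locus of 29 called in root, at -2.12 ± 0.45 (SE, adjusted p = 0.0246, limma), a call on values of at most 6.72. The 1 locus that was higher in both 2,4-D libraries was Solyc01g110670, at 0 in both mock libraries and at 3.47 and 6.05 on 2,4-D. Without the minimum it was not called (adjusted p = 0.107, limma).

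**Figure D3:**
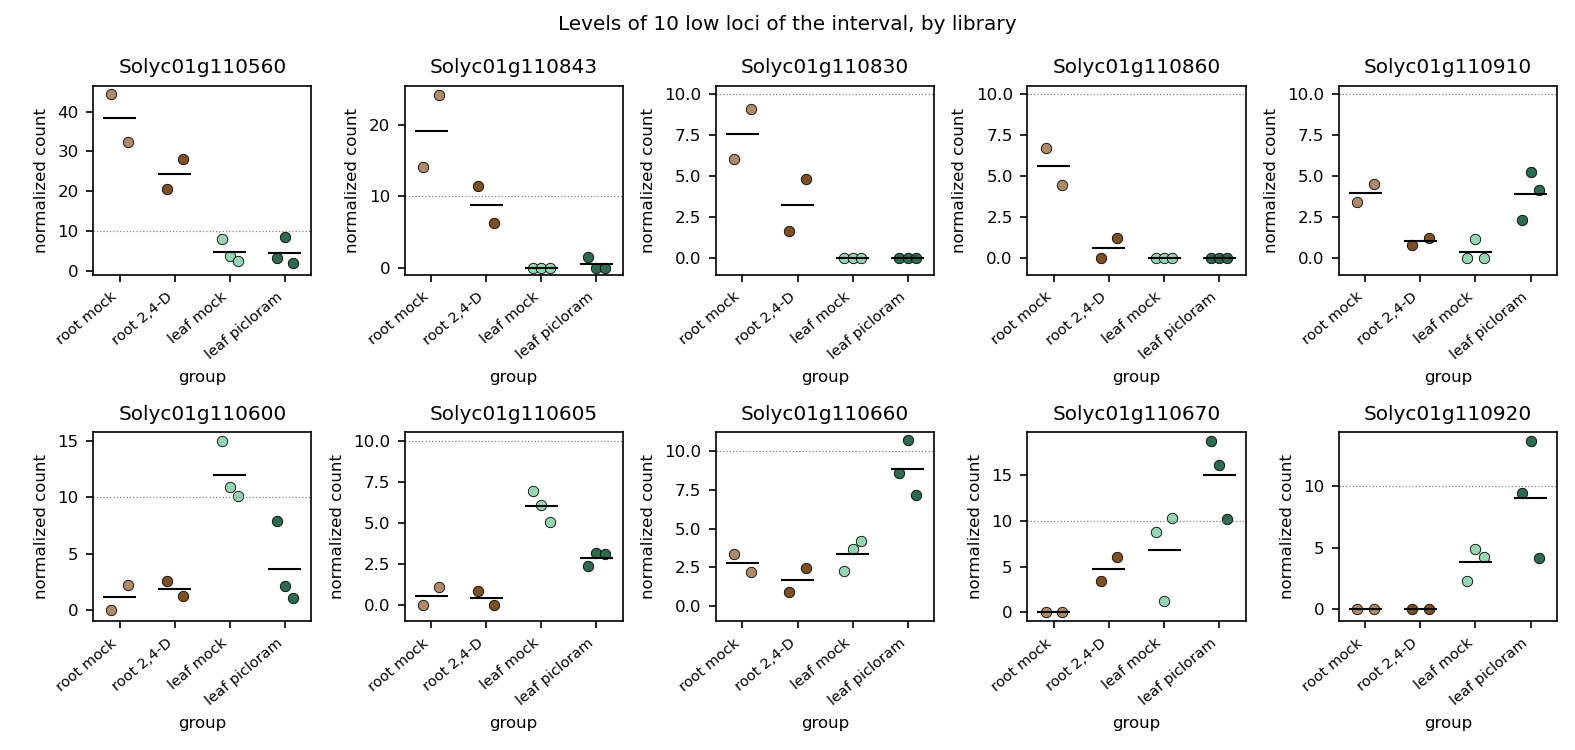
Normalized counts of 10 low loci of the interval in each library (points) by group, with the group mean (line) and the minimum of 10 (dotted); the 10 were picked after their values were seen. The upper row holds loci seen mainly in root, plus Solyc01g110910. The lower row holds loci seen mainly in leaf, plus Solyc01g110660, whose mock values overlap between the organs. In Solyc01g110860 the mock root libraries stand at 6.72 and 4.49 and the 2,4-D libraries at 0 and 1.23.

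Leaf primordia were examined next, with picloram against mock. Of 6 tested loci 0 rose and 1 fell, against 4.89% and 5.26% of all 14410 tested loci, and 10.2% called in either direction. The 1 that fell was the end locus Solyc01g110960, so that 0 of the 4 tested inner loci were called by limma, 2 of them with an unadjusted p under 0.05, as had 24.9% of all tested loci. The median log2 fold change was -0.31 over the 6 loci and 0.00 over all tested loci.

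Solyc01g110960 went from 353, 324 and 313 normalized counts in mock leaf to 187.5, 183 and 219 with picloram, means of 330 ± 20.4 and 196 ± 19.5 (SD, n = 3). The groups did not overlap, and the locus fell by 0.75 ± 0.12 on the log2 scale (SE, adjusted p = 0.00309, limma). The other end locus, Solyc01g110550, was at 362, 405 and 398 in mock and at 315, 301 and 331 with picloram, also without overlap, a smaller fold change of -0.30 ± 0.10 that was not called (SE, adjusted p = 0.0738, limma). Without mock leaf library 1 it was called (-0.35, adjusted p = 0.0406), but in 28 of 30 alternatives it was not (adjusted p up to 0.204, limma). The summed level of the 15 light-harvesting and Rubisco loci was lower too, at 10900 to 13200 with picloram against 17800 to 19000 in mock leaf, and its part in the lower values of the end loci was not tested. In whole primordia, fewer cells of a type and less RNA per cell cannot be told apart.

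Values of inner loci differed in both directions in leaf. Solyc01g110600 went from 15.0, 10.9 and 10.1 to 7.85, 2.10 and 1.03, a fold change of -1.75 ± 0.58 (SE, adjusted p = 0.083, limma), without overlap and not called. It reached the minimum through the mock libraries alone, an entry that favours a lower value with picloram. It passed without picloram library 1 (-2.35, adjusted p = 0.0285) and on log2(value + 5) (-1.04, adjusted p = 0.0316), but without picloram library 2 or 3 it stood at -1.60 and -1.29 (adjusted p = 0.207 and 0.246). Its neighbour Solyc01g110605, not tested, went from 6.91, 6.07 and 5.05 to 2.35, 3.16 and 3.09. These adjacent loci, then, were lower in all 3 picloram libraries than in any mock library.

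A few identifiers further on, the values went the other way. Solyc01g110660, not tested, had 2.23, 3.71 and 4.19 normalized counts in mock leaf and 8.61, 10.7 and 7.20 with picloram, without overlap. Solyc01g110670 went from 8.82, 1.23 and 10.3 to 18.8, 16.1 and 10.3, a fold change of 1.31 ± 0.57 (SE, adjusted p = 0.174, limma), the highest of the tested loci. Without mock leaf library 2, the low one, it was 0.57 (adjusted p = 0.468). Solyc01g110680 had 0.73 ± 0.63 (SE, adjusted p = 0.53), or 0.37 to 1.41 with 1 library left out, and Solyc01g110810 -0.33 ± 0.58 (SE, adjusted p = 0.785), with overlapping groups for both. Solyc01g110680 reached the minimum through picloram libraries alone, an entry that favours a higher value there. Solyc01g110670 also needed its picloram libraries to reach the minimum, since 10.3 was its only mock leaf value of at least 10. Its entry favours a higher value with picloram as well. In the stretch seen in leaf alone, Solyc01g110920 went from 2.30, 4.85 and 4.21 to 9.42, 13.7 and 4.11, which overlapped, and Solyc01g110917 from 1.15, 1.21 and 0 to 3.14, 3.16 and 2.06, which did not.

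Summed over the 48 inner loci, the leaf libraries gave 83.5, 88.4 and 87.8 normalized counts without picloram and 111, 111 and 91.8 with it, so that all 3 picloram libraries were above all 3 mock libraries. Of the mean difference of 18.3, Solyc01g110670 held 8.25, Solyc01g110660 5.47, Solyc01g110920 5.28 and Solyc01g110680 4.55, while Solyc01g110600 held -8.34. By locus, 14 inner loci had the higher mean with picloram and 18 the lower. Some differed by very little, such as Solyc01g110870 (-0.04) and Solyc01g110720 (-0.10). The share over all loci was not counted for these means. Of the 34 loci detected in leaf, 3 were above in all picloram libraries (8.82%, against 10.2% of all detected loci) and 4 below (11.8%, against 10.6%), shares near those of the table.

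**Figure D4:**
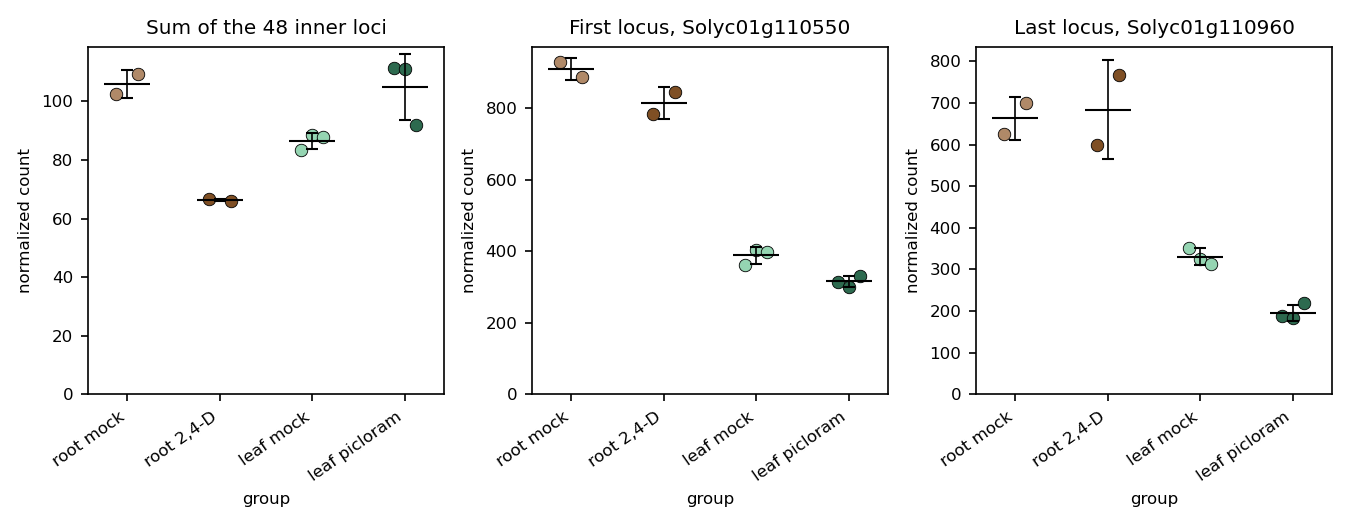
Normalized counts in each library (points) by group, with the mean (line) and SD (bar), for the sum of the 48 inner loci, the first locus and the last locus. The inner sum is 66.1 and 66.5 in the 2,4-D libraries and 103 and 109 in mock root, and 91.8 to 111 with picloram against 83.5 to 88.4 in mock leaf; the last locus does not overlap between mock and picloram leaf.

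**Figure D5:**
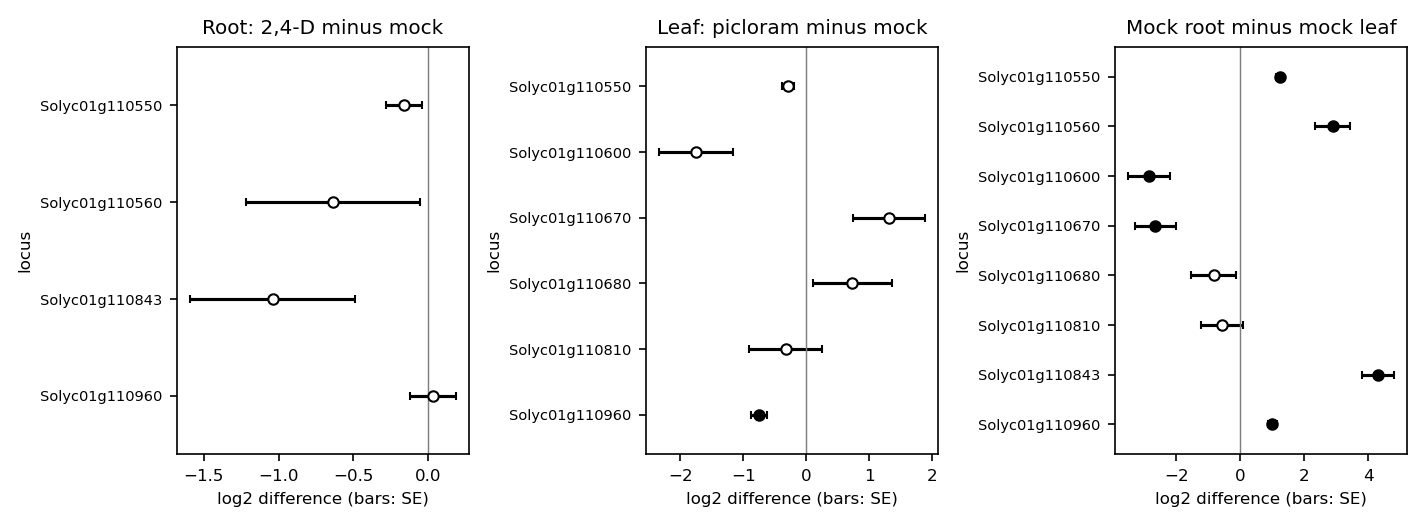
Log2 differences with SE for each tested locus in root (4 loci), leaf (6 loci) and between mock root and mock leaf (8 loci); filled points were called at an adjusted p under 0.05. In the auxin comparisons the 1 filled point is Solyc01g110960 in leaf; in the last panel the sizes of Solyc01g110843 and Solyc01g110670 depend on the added 1, since 1 of their mock groups is at 0.

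Whether a response differed between the 2 experiments could be tested for the end loci alone, since 0 inner loci reached the minimum in both organs. Neither was called, against 3.76% of 11313 loci tested in both (2.2% with the higher response in root, 1.56% in leaf). Of the 2 end loci, 1 had an unadjusted p under 0.05 by limma, as had 1923 of the 11313. For Solyc01g110960 the root response exceeded the leaf response by 0.78 ± 0.20 (SE, adjusted p = 0.0503, limma), just outside the threshold, and it passed under 5 of 29 alternatives (adjusted p from 0.0414 to 0.232 over all 29). For Solyc01g110550 the difference was 0.14 ± 0.15 (SE, adjusted p = 0.702, limma).

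A single inner locus had groups that did not overlap in either experiment and stood in opposite order in the 2 experiments. Solyc01g110910 had 3.41 and 4.51 normalized counts in mock root and 0.847 and 1.23 on 2,4-D, against 0, 1.19 and 0 in mock leaf and 2.35, 5.27 and 4.19 with picloram. Without the minimum, its leaf fold change was 1.88 ± 0.47 (SE, adjusted p = 0.0378, limma), its root fold change -1.28 ± 0.57 (SE, adjusted p = 0.326, limma) and the root response minus the leaf response -3.16 ± 0.74 (SE, adjusted p = 0.0476, limma). All 10 values are under 6 normalized counts, and the locus was named after its values were seen. Taken apart, 20.1% of all detected loci had both 2,4-D libraries below mock, and 10.2% had all picloram libraries above mock. The share of the table with both was not counted, so the locus is not shown to be unusual.

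The remaining loci were detected too weakly to describe beyond their range. Solyc01g110570, Solyc01g110630, Solyc01g110640, Solyc01g110710, Solyc01g110720, Solyc01g110760, Solyc01g110770, Solyc01g110820, Solyc01g110840, Solyc01g110870 and Solyc01g110950 had highest values from 1.05 to 6.26. Solyc01g110580 reached 10.9 in mock leaf library 3 and was at 2.43 to 8.42 in the other leaf libraries. Solyc01g110900 was higher in mock leaf, at 5.76, 6.07 and 5.90, than in mock root, at 0.852 and 2.24, and stood at 7.85, 7.36 and 1.03 with picloram. How reads shared by similar tandem copies were divided is not given in the sources used here, so levels of single loci are uncertain. Of the 39 detected loci, 7 had values equal to those of some other locus of the table to 6 decimals, and 0 of these were above 0 in 5 or more libraries.

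Lists of other auxin-responsive families were read in the same fits. Of 21 loci recalled from the literature as Aux/IAA genes, whose products repress the auxin response and are themselves quickly induced by the hormone, 6 of the 15 tested in root and 11 of the 18 tested in leaf rose, and 0 fell in either, with median log2 fold changes of 0.96 and 0.80. Of 8 loci recalled as GH3 genes, whose enzymes join auxin to amino acids, 1 of 3 rose in root and 2 of 7 in leaf, and 0 fell. Over all tested loci, 3.48% rose in root and 4.89% in leaf. Membership in these lists was not checked against an annotation. In the 20 loci on each side of the interval, 0 of 15 before it and 1 of 9 after it were called in root, and 2 of 17 and 1 of 10 in leaf, beside 4.55% and 10.2% of all tested loci called, so the flanks lay near the rate of the table. No test of the interval against these lists was made.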

How the data were processed

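The titles gave the groups of the 10 libraries, with 1 column per title. The deposited table holds a non-negative signal, which is gene counts that the authors normalized before deposit. Per the submitters' processing notes the tools were Salmon 0.8.2 and DESeq2, with no step assigned to either. Build and gene models: not given in the sources used here. No column was left unused. The members and lists were chosen with earlier results of these data known.

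Differences were tested with limma 3.58.1 (R 4.3.3) on log2(value + 1), with a mean-variance trend and 1 mean per group over all 10 libraries, giving 6 residual and 5.55 prior degrees of freedom. Variances were moderated over loci that reached 10 in at least 2 libraries of either organ. P-values are 2-sided, with Benjamini-Hochberg adjustment over the loci tested in each comparison (both organs for the difference of responses, either organ for the organ comparison). The added 1 understates changes of low loci. The counts had already been normalized and are not whole numbers, so no count test was run. The script was tested on simulated data. Changes were planted there only in loci of a higher level than nearly all inner loci, so that test does not cover the low loci.

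Loci named are those called, the 5 highest per group, the extremes not called and adjacent loci with opposite calls. Loci under the minimum, such as Solyc01g110605, Solyc01g110660, Solyc01g110860, Solyc01g110910 and Solyc01g110917, were named after their values were seen. Alternatives covered the pseudocount, minimum, scaling, moderation, fit, replicate block and each library left out.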

Additional observations from a re-analysis of the deposited data

How the results depend on the processing

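The number of loci called in root was 0 in all alternatives but 1, the fit with no minimum on low values, which called 1. In leaf it was 1, and it was 2 on log2(value + 5) and with no minimum, 1 to 2 with 1 library left out, and 0 without the 2 end loci, a count chosen after the data were seen. In the mock comparison it was 6, 11 with no minimum, 3 with a minimum of 20 and 6 to 6 with 1 library left out. For the difference of responses it was 0, and 0 with 1 leaf library left out. It was 1 with no minimum, where Solyc01g110910 was called with the lower response in root. It was also 1 on log2(value + 5), with a minimum of 20, with recomputed median ratios and with robust moderation. In these, the locus called was Solyc01g110960, with the higher response in root. The fall of Solyc01g110960 in leaf was called in all 30 alternatives (adjusted p up to 0.0186). Signs changed for loci near 0: Solyc01g110960 in root (-0.14 to 0.21 with 1 library left out, and -0.045 without mock root library 1) and Solyc01g110810 in leaf (-0.59 to 0.19) and, with the replicate block, in the mock comparison (0.0003). The causes were not tested. The added constant set the size of low loci, with Solyc01g110600 at -1.49 in the mock comparison on log2(value + 5). With the replicate block, the calls in the interval were 0, 1, 0 and 6 as without it. Libraries of the same number deviated together only weakly (r = 0.10 in root, and 0.10, 0.01 and 0.00 in leaf, across loci), and not every leaf library correlated best with its own number, so the numbers were not taken as pairs. With values of a few fragments, 42 of 50 loci were too low to test.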
